A study of Homo sapiens with 4 samples.

Results

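The mitochondrial protein import machinery was followed in MV4-11 cells, a human acute myeloid leukemia line, through 33 genes of its outer membrane, intermembrane space and inner membrane complexes. The genes were listed by function, and the list was chosen by looking at results of the same sh-IRF1 against sh-NC contrast that is described here. The normalized counts of that contrast are therefore a description of the list and no test of it. Of the 33 genes, 32 had a row among the 23622 genes of the deposited table and all 32 were among the 14120 genes with enough reads to be tested. The expression of TOMM6 was not analysed here. Cells were infected with lentivirus that encoded a control hairpin (sh-NC) or one that targets IRF1 (sh-IRF1) and were selected with puromycin, and each group had 2 libraries of total RNA. The labels call the control libraries untreated wild type, whereas the study's text names that group sh-NC. Neither source gives the hairpin behind each sh-IRF1 library or says that replicates came from separate cultures. The study states in general that its experiments were repeated independently, but not how that applies to the 2 libraries of each group. Every interval therefore rests on the spread between these libraries, which may be technical.

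Most mitochondrial proteins are made in the cytosol and are threaded into the organelle after synthesis. The TOM complex of the outer membrane holds the receptors and the pore through which nearly all precursors pass. TIM23 with its ATP-driven motor moves precursors with a cleavable presequence into the matrix, where the processing peptidase removes the presequence, and TIM22 inserts carriers into the inner membrane. The small TIM chaperones escort hydrophobic precursors across the intermembrane space, SAM inserts barrel proteins into the outer membrane, and MIA folds small cysteine-rich proteins by forming disulfide bonds. Acute myeloid leukemia cells are known for a reliance on respiration, most subunits of which are imported.

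The promoters of the 3 TOM receptors are shown first because these genes bind precursors at the same complex and had the widest range of log2 fold changes of any of the complexes listed. Each run is the 250 bases before the start of the gene, 5′ to 3′ on the gene's strand, from RefSeq on GRCh38.p14. Capitals mark CACGTG (the E-box, bound by MYC and related factors) and CCGGAAGT (the site of ETS factors such as GABPA).
TOMM20, chr1:235128838-235129087, minus strand: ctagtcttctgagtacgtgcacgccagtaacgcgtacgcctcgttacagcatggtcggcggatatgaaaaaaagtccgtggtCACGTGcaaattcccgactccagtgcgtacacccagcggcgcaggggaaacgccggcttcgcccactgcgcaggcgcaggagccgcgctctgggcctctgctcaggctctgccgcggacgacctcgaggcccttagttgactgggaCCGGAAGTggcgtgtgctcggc
TOMM70, chr3:100401090-100401339, minus strand: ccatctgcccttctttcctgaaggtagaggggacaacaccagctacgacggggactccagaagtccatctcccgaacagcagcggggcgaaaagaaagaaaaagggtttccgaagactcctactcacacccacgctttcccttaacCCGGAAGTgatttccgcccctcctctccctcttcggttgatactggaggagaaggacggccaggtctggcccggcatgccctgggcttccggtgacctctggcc
TOMM22, chr22:38681707-38681956, plus strand: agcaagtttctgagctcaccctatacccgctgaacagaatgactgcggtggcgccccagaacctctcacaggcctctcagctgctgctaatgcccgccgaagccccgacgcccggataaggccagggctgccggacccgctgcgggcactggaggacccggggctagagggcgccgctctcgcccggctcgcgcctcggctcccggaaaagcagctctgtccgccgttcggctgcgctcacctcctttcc

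In the TOMM20 run the E-box began 168 bases and the ETS letters 22 bases before the start. The ETS letters of TOMM70 began 104 bases before its start, and the TOMM22 run held none of the 4 motifs searched. The other 2 motifs were CGCATGCG (NRF1) and GAAANNGAA (interferon regulatory factors), and both strands were searched.

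The deposited values, called normalized counts here, are read numbers that the authors scaled by a size factor for each library. Depth was between 17635908 and 18695337 recovered reads per library, and import genes took 0.227% and 0.225% of the reads in sh-NC against 0.194% and 0.192% in sh-IRF1. Fold changes are differences on the scale of log2(normalized count + 1), which understates changes of genes with few reads. A gene is said to have risen or fallen when its adjusted p was under 0.05 in limma, with Benjamini-Hochberg adjustment over all 14120 genes. IRF1, the targeted gene, had normalized counts of 785 and 738 in sh-NC and of 429.7 and 432 in sh-IRF1, which corresponds to -0.82 on the log2 scale (SE 0.0904, adjusted p = 1.69e-10 from limma). Reads of the mitochondrial genome itself made up 4.21% and 4.51% of the sh-NC libraries and 3.99% and 3.92% of the sh-IRF1 libraries, and their part in the values below was not tested. All 8 listed markers of myeloid blasts were present in every library, of which MPO, FLT3 and CEBPA fell and LYZ and SPI1 rose. CD79A, a B cell marker, also rose (normalized counts of 190.0 and 250.2 against 50.3 and 43.1), and the part of these markers in the values below was not tested. The T cell and erythroid markers listed were not analysed here.

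TOMM20 and 8 other import genes had lower transcript levels after IRF1 knockdown, and none was called higher. The 9 that fell were the receptors TOMM20 and TOMM70, the chaperone gene TIMM13, the TIM22 subunit gene TIMM29, the TIM23 subunit gene TIMM17A, the motor gene GRPEL1, MTX1 of SAM, CHCHD4 of MIA and PMPCA of the processing peptidase. They were 28.1% of the 32 genes, where 21.9% of all genes tested were lower and 20.3% were higher by the same rule. At an unadjusted p under 0.05, limma had 10 import genes lower and 3 higher, and the share of all genes by that rule was not taken. After adjustment, edgeR's quasi-likelihood test called 9 import genes lower and 1 higher, against 3038 and 2910 of all genes. DESeq2 called 6 import genes lower and 0 higher, against 2605 and 2312 of all genes. With values rescaled to equal total reads, limma called 6 lower and 3 higher (TOMM34, TOMM40L and TIMM21), against 2645 and 3433 of all genes. TIMM13, TIMM17A and CHCHD4 were then no longer called. With a log2 fold change beyond 0.5 required as well, TOMM20 was the single gene left among the lower ones and none was higher, against 7.56% and 8.27% of all genes. In bulk RNA, fewer cells that carry a transcript and less of it per cell cannot be told apart.

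**Figure D1:**
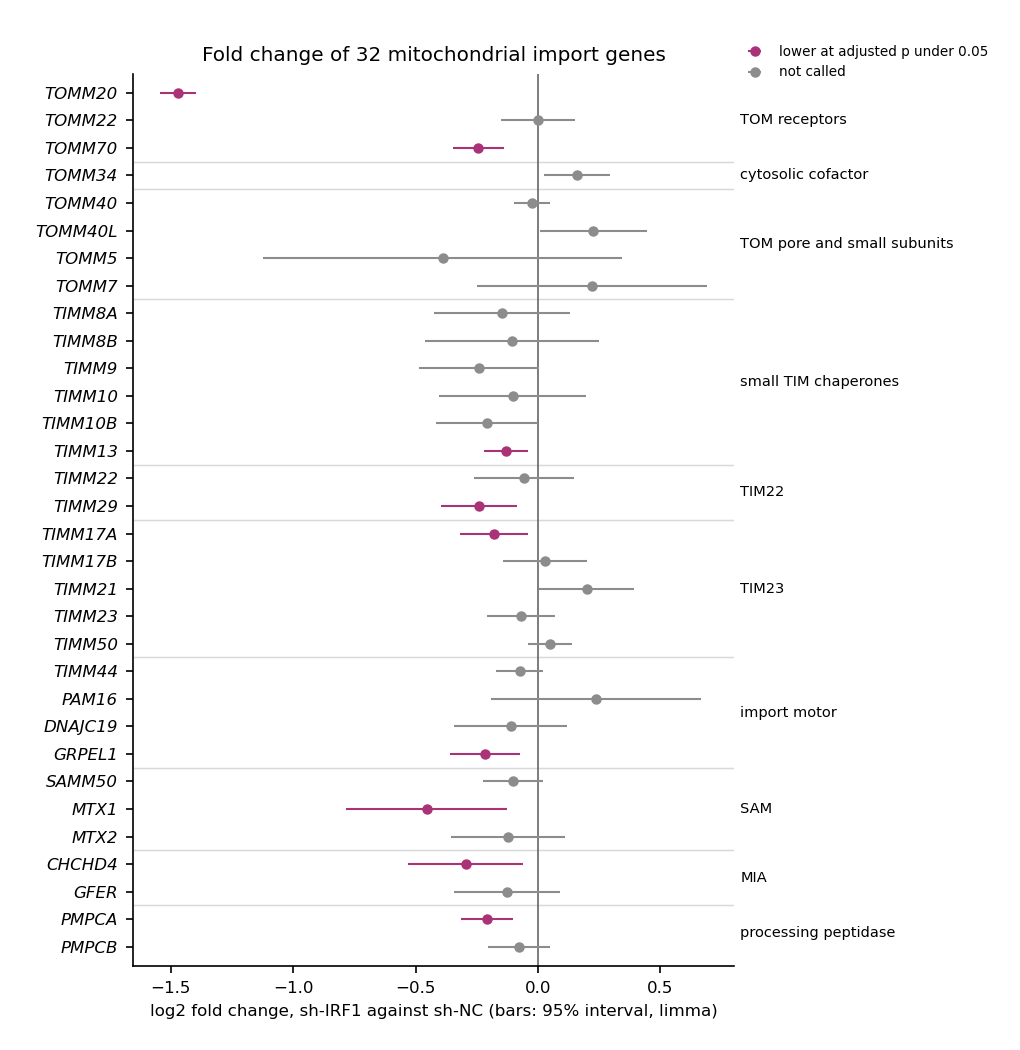
Log2 fold change of each of the 32 import genes, sh-IRF1 against sh-NC, grouped by complex; points are limma estimates from 2 libraries per group and bars are 95% intervals. TOMM20 stands at -1.47, and the other 31 genes lie between -0.45 and 0.24.

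TOMM20 encodes the receptor that recognises presequences at the outer membrane (chromosome 1, 235109341 to 235128837 on GRCh38, minus strand). Its normalized counts were 8071 and 8273 in sh-NC and 2943 and 2951 in sh-IRF1. Both knockdown libraries lay far below both control libraries, and the replicates of each group were close to each other. The mean fell from 8172 ± 143 (SD, n = 2) to 2947 ± 5.74 (SD, n = 2), which left 36.1% of the sh-NC level. On the log2 scale the difference was -1.47 (SE 0.0369, 95% interval -1.55 to -1.40), which ranked 140 by size among the 3092 genes called lower. TOMM20P4, a processed copy of TOMM20 on chromosome X with few reads, also fell, from normalized counts of 89.2 and 77.0 to 12.9 and 30.0. A second copy, TOMM20P2, overlapped between the groups, with 21.5 and 29.8 against 22.9 and 24.4 and a log2 fold change of -0.10, and the reads of both copies came to 1.39% of those of TOMM20 itself.

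TOMM70, the receptor for carrier precursors, fell less. It had normalized counts of 2304 and 2189.8 in sh-NC and of 1979 and 1819 in sh-IRF1, with no overlap between the groups and a log2 fold change of -0.24 (SE 0.0522, 95% interval -0.35 to -0.14). TOMM22, the receptor that holds the complex together, had 890.4 and 915 in sh-NC and 959.9 and 849.8 in sh-IRF1. The knockdown libraries of TOMM22 lay on either side of the controls, and its log2 fold change was 0.00 (95% interval -0.15 to 0.15). TOMM34, a cytosolic partner of import that binds HSP70 and HSP90, was at 1016 and 992 in sh-NC against 1147 and 1097 in sh-IRF1, or 0.16 on the log2 scale (95% interval 0.02 to 0.30) that was not called. TOMM34 was called higher under 6 of 14 alternative settings.

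No gene of the TOM pore was called. TOMM40, the channel protein, had normalized counts of 6214 and 5842 in sh-NC and of 6002 and 5849 in sh-IRF1, which overlapped, and its log2 fold change was -0.02 (95% interval -0.10 to 0.05). Its paralog TOMM40L was at 413 and 350.2 in sh-NC and at 445 and 446.0 in sh-IRF1, a difference of 0.23 on the log2 scale (95% interval 0.01 to 0.44) that was not called. TOMM5 and TOMM7, small subunits that stabilise the pore, had the fewest reads of the TOM genes. Between 25 and 45 reads per library stood behind TOMM5 and between 65 and 98 behind TOMM7, and their 95% intervals, -1.13 to 0.35 and -0.25 to 0.69, are too wide to show a change at this depth.

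**Figure D2:**
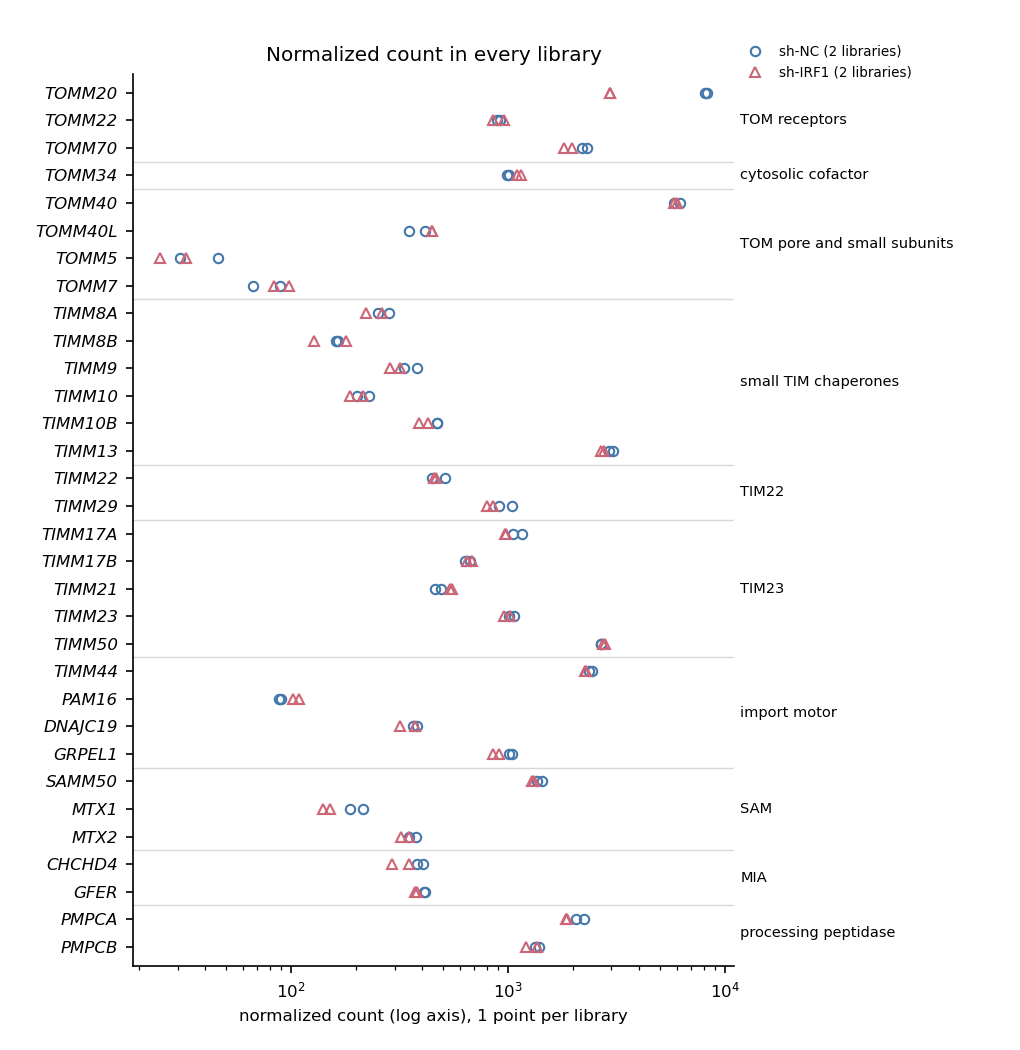
Normalized count of each import gene on a log axis, with 1 open point for each library, circles for sh-NC and triangles for sh-IRF1. The sh-IRF1 points of TOMM20 lie near 2947, well below its sh-NC points near 8172, while most other genes have points of both groups close together.

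Per length of merged exons, TOMM20 had the highest transcript level of the 32 genes in sh-NC and the third highest in sh-IRF1. Its level was 131 ± 2.10 RPKM (reads per kilobase of merged exons, scaled to the reads of the library; SD, n = 2) in sh-NC and 48.8 ± 0.266 RPKM in sh-IRF1. TIMM13 (99.2 ± 2.76) and TOMM40 (92.2 ± 4.17) came next in sh-NC, followed by TIMM23 (48.2 ± 2.08), which lay next to TOMM20 in sh-IRF1 (47.4 ± 2.00). That last pair did not differ beyond the spread of TIMM23. In sh-IRF1, TIMM13 (93.5 ± 1.99) and TOMM40 (93.5 ± 1.38) had the highest levels and did not differ beyond their spread. TOMM5, at 0.589 ± 0.167, had the lowest level of the 32 in sh-NC. Per length of the longest transcript, TOMM20 (mean 137) was also highest in sh-NC, but TIMM44 (59.5) stood above TIMM23 (48.2). The ranks below the top therefore depend on the length used, and those in sh-IRF1 were not compared by the longest transcript.

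TOMM20 made up 46.0% and 47.7% of the summed level per length of the 7 TOM genes in the sh-NC libraries and 24.1% and 25.1% in the sh-IRF1 libraries. The 7 include the paralog TOMM40L and lack TOMM6, so these are not shares of the whole complex. The sum of the other 6 was 152.6 and 145.4 RPKM in sh-NC and 152.8 and 146.2 in sh-IRF1, so the groups overlapped. The ratio of TOMM20 to TOMM40 was 1.36 and 1.49 in sh-NC and 0.515 and 0.530 in sh-IRF1. The ratio of TOMM20 to TOMM22 went from 5.75 and 5.74 to 1.95 and 2.20, and that of TOMM20 to TOMM70 from 5.17 and 5.58 to 2.20 and 2.40. Over all import genes, TOMM20 held 19.7% and 20.3% of the reads in sh-NC and 8.61% and 8.78% in sh-IRF1, and without it the list took 0.182% and 0.179% of the libraries against 0.177% and 0.175%.

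**Figure D3:**
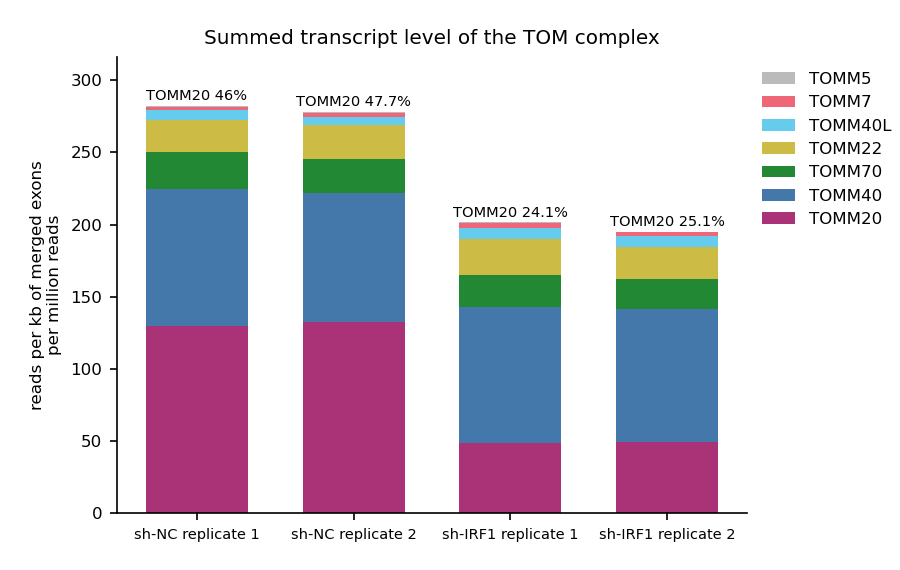
Summed transcript level of 7 TOM genes in each library, in RPKM over merged exons, stacked by gene, with the TOMM20 share above each bar. The bars without TOMM20 have about the same height in all 4 libraries (145.4 to 152.8), while the TOMM20 block is between 129.8 and 132.7 in sh-NC and between 48.6 and 49.0 in sh-IRF1.

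All 6 small TIM chaperone genes had a log2 fold change below 0, between -0.24 and -0.10, and TIMM13 was the one that fell. TIMM13 pairs with TIMM8A in a chaperone for inner membrane precursors. Its normalized counts were 2929 and 3053 in sh-NC and 2780.2 and 2684 in sh-IRF1, without overlap, and its log2 fold change was -0.13 (SE 0.0448). TIMM9 and TIMM10B lay lower in both knockdown libraries than in both controls without being called (-0.24, 95% interval -0.48 to 0.00, and -0.21, -0.42 to 0.00). TIMM8A, TIMM8B and TIMM10 overlapped between the groups, with log2 fold changes of -0.15, -0.11 and -0.10. Neighbouring genes overlap 30.1% of the exonic length of TIMM8B, 26.6% of TIMM9, 20.1% of TIMM13 and 13.3% of TIMM10B. Outside this group, neighbours overlap 21.9% of the exonic length of MTX1, 20.3% of TOMM40L, 18.9% of TOMM5, 15.5% of TIMM17B and 12.5% of PMPCB. Part of the reads of all these genes could belong to either the gene or its neighbour.

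Among the listed genes, the inner membrane complexes had 1 fallen gene each. TIMM29, a TIM22 subunit of animals, fell (905.8 and 1049 against 853 and 797 normalized counts, log2 fold change -0.24, SE 0.0764), while TIMM22, the channel of that complex, overlapped between the groups at -0.06 (95% interval -0.26 to 0.15). In TIM23, TIMM17A fell (1057 and 1158 against 974 and 978, log2 fold change -0.18, SE 0.0690). Its paralog TIMM17B, which takes the same place in other copies of the complex, had 633 and 672 in sh-NC and 645 and 686 in sh-IRF1, which overlapped, with a log2 fold change of 0.03 (95% interval -0.14 to 0.20). That the paralogs differ in their change was not tested. The channel gene TIMM23 was at -0.07 (95% interval -0.21 to 0.07) and the presequence receptor TIMM50 at 0.05 (95% interval -0.04 to 0.14). TIMM23 has a near-identical copy, TIMM23B, with normalized counts of 156 and 138 in sh-NC and 128 and 132 in sh-IRF1, and reads of the pair could be split between them. TIMM21, which tethers TIM23 to TOM, was at 461 and 489 in sh-NC and at 538 and 552 in sh-IRF1, above both controls, but with a log2 fold change of 0.20 (95% interval 0.01 to 0.39) it was not called.

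In the import motor, GRPEL1, the nucleotide exchange factor of the mitochondrial HSP70, fell. Its normalized counts were 1038 and 1008 in sh-NC and 907 and 855 in sh-IRF1, and its log2 fold change was -0.22 (SE 0.0712). TIMM44, which anchors the motor to the channel, was at -0.07 (95% interval -0.17 to 0.02), and DNAJC19, a J protein, at -0.11 (95% interval -0.34 to 0.12). PAM16, which restrains the J protein, stood against the rest of the motor at 90.3 and 88.3 in sh-NC and 102 and 109 in sh-IRF1. With 86 to 116 reads per library its log2 fold change of 0.24 had a 95% interval of -0.19 to 0.67, and the readthrough gene CORO7-PAM16 overlaps 22.4% of its exonic length.

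SAM, MIA and the processing peptidase each held 1 gene that fell, and every gene of the 3 groups had a log2 fold change below 0. MTX1, a metaxin subunit of SAM, had normalized counts of 214 and 187 in sh-NC and 151 and 141 in sh-IRF1, with no overlap and a log2 fold change of -0.45 (SE 0.163, 95% interval -0.78 to -0.13). Its pseudogene MTX1P1 had about as many reads, 102.5% of those of MTX1, and rose, from 145 and 130.4 to 212 and 215 (0.63 on the log2 scale, adjusted p = 0.00133 from limma). The sum of the pair was taken after these values were seen. It was 359 and 317 in sh-NC and 363 and 355 in sh-IRF1, which overlapped. The part that the division of reads between the copies has in the value of MTX1 was not tested. SAMM50, the core of SAM, and MTX2 were at -0.10 and -0.12 and were not called. CHCHD4, the oxidoreductase of MIA, fell from 381 and 405 to 293 and 349 (log2 fold change -0.29, SE 0.117, 95% interval -0.53 to -0.06), while GFER, which reoxidises it, was at -0.13 (95% interval -0.34 to 0.09) and another gene overlaps 41.5% of its exonic length. PMPCA, the regulatory subunit of the peptidase, fell from 2066 and 2244 to 1876 and 1851 (log2 fold change -0.21, SE 0.0522), and PMPCB, the catalytic subunit, overlapped between the groups at -0.08 (95% interval -0.21 to 0.05).

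Across the 32 genes the median log2 fold change was -0.11, and it was -0.11 without TOMM20, against 0.00 over all genes tested. Values were below 0 for 24 genes and above 0 for 8. Both sh-IRF1 libraries lay below both sh-NC libraries for 15 genes and above them for 5, and the groups overlapped for 12. Of all genes tested, 35% lay below and 34.2% above in this way. Of the 23 genes that were not called, 20 had a 95% interval within 0.5 of 0 on the log2 scale, and TOMM5, TOMM7 and PAM16, each with a mean normalized count under 100 in sh-NC, had intervals that reached further.

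The calls other than those of TOMM20 and TOMM70 depended on the setting. Both receptors fell under all 14 alternatives, TOMM20 with a log2 fold change between -1.49 and -1.43 and TOMM70 between -0.30 and -0.18. Of the same 14, PMPCA was called lower under 13, TIMM29 and GRPEL1 under 12, and TIMM13 under 11. MTX1 was called lower under 10, CHCHD4 under 9 and TIMM17A under 8. A fit with 1 library left out has no replicate in that group, so sizes alone are given. Over these fits TIMM13 was between -0.16 and -0.10, TIMM29 between -0.35 and -0.13 and TIMM17A between -0.25 and -0.11 on the log2 scale. GRPEL1 was between -0.26 and -0.17, MTX1 between -0.55 and -0.36, CHCHD4 between -0.42 and -0.17, and PMPCA between -0.27 and -0.15. DESeq2 did not call TIMM17A, MTX1 and CHCHD4. No called gene changed sign under any of these settings, while 7 of the genes not called did.

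Promoter windows of 300 bases, 250 before to 50 after the start, were matched for 30 of the 33 genes, all but GRPEL1, TIMM8B and TOMM5. The ETS letters were found in 7 of 30 windows (MTX2, TIMM10, TIMM10B, TIMM29, TOMM20, TOMM6 and TOMM70), or 23.3%, against 4.44% of 27305 windows of all genes. Of these 7 genes TOMM20, TOMM70 and TIMM29 fell, MTX2, TIMM10 and TIMM10B were not called, and TOMM6 has no value here. Of all genes tested, 21.9% fell and 20.3% rose. The NRF1 letters were in 3 (CHCHD4, TIMM9 and TOMM7), or 10%, against 2.19%. The E-box was in 3 (TIMM10, TIMM8A and TOMM20), or 10%, against 7.44%, and the interferon regulatory factor letters were in 3 (TIMM10B, TIMM23 and TOMM7), or 10%, against 8.29%. Median GC content of the 250 upstream bases was 64.2% for the import genes and 58% for all genes, and its part in the motif shares was not tested. Among the genes with the other motifs, CHCHD4 (NRF1) and TOMM20 (E-box) fell and the rest were not called. Whether any of the letters bear on the calls was not tested. A match is a run of letters and not a site shown to be bound.

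The study's 2 hairpin targets in IRF1 were compared with the import transcripts of GENCODE 44, and capitals mark the bases that pair with the seed of the guide strand.
sh-IRF1#1: gcaccagtgatctGTACAACt
sh-IRF1#2: ggaaattacctgaGGACATCa
None of the 32 import genes held a whole target in any transcript, and the longest shared run was between 6 and 9 bases for the first target and between 6 and 10 for the second. The seed letters were in the canonical transcripts of 3 import genes for the first target (TIMM10, TIMM10B and PMPCB) and of 5 for the second (TOMM5, TOMM7, TIMM8A, TIMM10 and TIMM44), none of them among the 9 that fell. Of all genes scanned, 11.4% and 21.8% held them.

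TOMM20 was also set beside its chromosomal neighbours, in a window chosen after its value was seen. Of 8 other tested genes whose starts lie within 500 kb, ARID4B, a chromatin regulator, was the 1 that fell (normalized counts of 1017 and 937 against 659 and 706, log2 fold change -0.52, SE 0.0774, adjusted p = 2.78e-07 from limma), and 0 rose. Over all genes tested, 21.9% fell and 20.3% rose. The start of ARID4B lies 199 kb from that of TOMM20. The nearest tested start, of RBM34 at 32.4 kb, had between 11.3 and 31.9 normalized counts and was not called (adjusted p = 0.44 from limma).

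Other mitochondrial genes, among them genes of the import route and of its substrates, moved in both directions. In 6 further lists, 26 of 86 tested genes fell and 14 rose, or 30.2% and 16.3%. All genes had 21.9% and 20.3%, and the lists had a joint median log2 fold change of -0.03. The 86 include 10 regulators of mitochondrial gene expression, which are not part of the import route. These regulators gave 7 of the 26 lower calls and 0 of the 14 higher ones. Of 19 other import genes 6 fell, among them HSPA9, the mitochondrial HSP70 that drives the motor (normalized counts of 12481 and 12712 against 8909 and 8765, log2 fold change -0.51, SE 0.0295, adjusted p = 1.42e-19 from limma). GRPEL2, the second exchange factor of that HSP70, named here after its values were seen, fell from 723 and 822 to 463 and 460.1. Of the same list 2 rose, with MIPEP, a peptidase that trims imported presequence proteins a second time, at 885 and 877 in sh-NC and 1015 and 1038 in sh-IRF1. AGK, named here after its values were seen, was the other. It went from 13.3 and 10.3 to 25.9 and 30.0 (log2 fold change 1.18, SE 0.485, adjusted p = 0.0452 from limma). Only 10 to 32 reads per library stood behind AGK.

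For the counts of each list below, the shares over all genes tested were again 21.9% lower and 20.3% higher. Of 9 protease genes of the matrix and inner membrane 3 fell and 1 rose. LONP1, the main matrix protease, had the smallest p of those that fell, at -0.39 on the log2 scale (adjusted p = 4.10e-15 from limma), while CLPX fell further (-0.64), and SPG7 rose by 0.28 (adjusted p = 0.000131 from limma). Of 7 genes of MICOS, the complex that shapes cristae and contacts SAM, IMMT fell (-0.35) and CHCHD6 and CHCHD3 rose, CHCHD6 by 0.66. Substrates of MIA with paired CX9C motifs were split into 4 lower and 2 higher of 19, with CHCHD2 at -0.21 and NDUFS5 at 0.24. Substrates of the carrier route were split into 5 lower and 7 higher of 22, with SLC25A36 at -0.80 (adjusted p = 1.99e-14 from limma) and SLC25A22 at 0.40 (adjusted p = 1.75e-06 from limma).

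Of 10 regulators of mitochondrial gene expression 7 fell and 0 rose, where 21.9% of all genes fell and 20.3% rose, and their median log2 fold change was -0.18. At an unadjusted p under 0.05 limma also had 7 lower and 0 higher, a rule for which the share of all genes was not taken. MYC had the smallest p of them, with normalized counts of 14198 and 14561 in sh-NC and 7380 and 7348 in sh-IRF1 (log2 fold change -0.97, SE 0.0297, adjusted p = 1.03e-29 from limma). GABPA, an ETS factor, and its partner GABPB1 fell by 0.23 and 0.35 on the log2 scale. TFAM, which packages the mitochondrial genome, fell by 0.22, and TFB2M, which starts transcription of that genome, fell by 0.64. Whether any of these changes bears on TOMM20 was not tested.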

How the data were processed

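Total RNA of 4 MV4-11 libraries was sequenced, and the submitters' processing notes name HISAT2 2.0.5 and hg38. Counting tool, annotation and strand use are not given in the sources used here. The deposited values are a signal, read numbers that the authors divided by size factors. Since 100% were whole multiples of 1 read (tolerance 0.01 of a read), reads were recovered for the count tests, and 0 columns were left unused. Replicates differed by more than sampling noise (mean chi-square per gene 2.93 for sh-NC, 2.47 for sh-IRF1).

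limma 3.58.1 (R 4.3.3, trend and robust) was applied to log2(value + 1) for genes that reached 10 in at least 2 libraries. Its SEs and intervals are moderated, so the spread of each gene was drawn toward the trend over all genes tested. Alternatives were edgeR 4.0.16, DESeq2 1.42.0, other scalings, filters and pseudocounts, a replicate block, and leaving out each library. The code was tested on simulated data. Symbols matched 23456 of 23622 identifiers, and lengths, positions and overlaps came from GENCODE 44. Members, lists and motifs were chosen with earlier results of these data known. Every import gene is described. From each other list, the top gene by p in either direction was named. GRPEL2, AGK, TFAM, TFB2M, GABPA, GABPB1, CHCHD3, CLPX and ARID4B were named after their values were seen. Protein sequences were not used here.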

Additional observations from a re-analysis of the deposited data

How the results depend on the processing

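The lower calls among import genes were 9 in the fit described and between 4 and 7 with 1 library left out, 6 with total reads scaling, 7 with upper quartile scaling, and 1 when a log2 fold change beyond 0.5 was also required, at an adjusted or an unadjusted p under 0.05. The higher calls were 0 in the fit described, 1 with edgeR, with TMM scaling, with upper quartile scaling and with a filter at 50. They were 3 with total reads scaling. Over all genes the higher calls were 2861 in the fit described and 3433 with total reads scaling. They were 2910 with edgeR, 2947 with TMM scaling, 3041 with upper quartile scaling and 2782 with a filter at 50. The import genes called higher were TOMM34, TOMM40L and TIMM21, and the cause was not tested. The replicate block gave 9 lower and 1 higher call among import genes, and 3147 lower and 2903 higher over all genes. The difference between replicates 1 and 2 in sh-NC correlated with that in sh-IRF1 at r = -0.02 over 14120 genes (0.01 over the 9987 with a mean of at least 100). Whether replicates with the same number were handled together cannot be told from this correlation. The median log2 fold change of the import genes was -0.0645 with total reads scaling and between -0.12 and -0.0755 with 1 library left out. Over all genes, 1067 were lower and 1168 higher with the minimum fold change, and 1182 and 1345 with an unadjusted p, against 3092 and 2861. In the other lists, 7 genes were lower and 2 higher with the minimum fold change, and 9 were higher with DESeq2 or, over the left-out libraries, between 9 and 15. TOMM20 made up 45.2% of the TOM level in sh-NC by the longest transcript, against 46.8%, and the E-box was in 1 promoter rather than 3 when the 250 bases before the start were searched. With 2 libraries per group and between 25 and 116 reads behind TOMM5, TOMM7 and PAM16, the 95% intervals of these genes reach beyond 0.5 on the log2 scale, and smaller changes were not detectable at this depth.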
